A study of Mus musculus with 3 samples.

Results

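A set of 10 genes of fat breakdown and of the lipid droplet surface was followed in nuclei of mouse interscapular brown adipose tissue (BAT). The 10 genes, of 23041 to 23364 listed per library, were picked by name for their role: the lipases Pnpla2, Lipe and Mgll, the lipase regulators Abhd5 and G0s2, and the droplet coat genes Plin1, Plin2, Plin4, Plin5 and Cidec. All 10 were listed in all 3 libraries. Single-nucleus RNA sequencing had been made from adult male C57Bl6 mice of WT genotype, with 1 library each of BAT that had no treatment, BAT after a sham operation and BAT after denervation. In the study's methods, denervation meant cutting the intercostal nerve branches to the left BAT lobe. Nuclei of the untreated and denervated libraries came from the floating layer of digested tissue, which holds brown adipocytes (BAs) and pieces of vessels. A legend of the study places the denervated nuclei at 3 days after denervation. It also lists tamoxifen administrations, which the legend of the untreated nuclei does not, and any part of tamoxifen in the differences was not tested. These legends list several mice each, without saying how their tissue was combined. How the sham library was made is not given in the sources used here. For other experiments the study names both a sham-operated lobe opposite the denervated one and separate sham-operated BAT, and which of them was sequenced is not stated. The header of the denervated table carries the run name nKO and that of the untreated table nC, while the labels give denervation and WT for the former, and the labels were followed.

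A lipid droplet is a core of triglyceride under a single layer of phospholipid and coat proteins. Triglyceride is cleaved in steps: adipose triglyceride lipase (Pnpla2) removes the first fatty acid, hormone-sensitive lipase (Lipe) the next, and monoglyceride lipase (Mgll) the last. Abhd5 (CGI-58) switches Pnpla2 on and G0s2 inhibits it, while perilipin 1 (Plin1) holds Abhd5 on the resting droplet and releases it when protein kinase A phosphorylates the coat. In BAs the fatty acids set free fuel heat production by UCP1 and also activate it, and the sympathetic nerve is the main trigger.

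The genes lie on 6 chromosomes of the mouse genome (GRCm38, GENCODE vM21). Pnpla2 is at chr7:141455198-141460743, Lipe at chr7:25379527-25398710, Mgll at chr6:88724412-88828360, Abhd5 at chr9:122351608-122381524 and G0s2 at chr1:193272161-193273217. Plin1 is at chr7:79720218-79732903, Plin2 at chr4:86648386-86670060 and Cidec at chr6:113424634-113435760. Plin4 at chr17:56100591-56109803 and Plin5 at chr17:56111601-56117596 are neighbours on the same strand, 1797 bases apart. G0s2 lies within the span of Lamb3 on the other strand, and the antisense gene 4732471J01Rik crosses all of Lipe. In BA-like nuclei Lamb3 had a level of 59.6, 45.2 and 74.2 CPM (UMIs per 1000000 UMIs of the class) and 4732471J01Rik of 282, 350.01 and 254 CPM in the untreated, sham and denervated libraries. Hdgfl2 had 32.6, 52.4 and 32.2 CPM there and Gm26588 5.26, 6.49 and 4.35 CPM. Whether the counting used strand is not given in the sources used here, so reads of such partners may not be told apart.

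All 10 genes had at least 1 promoter in RefSeq (GRCm38.p6; 14 promoters, each from 250 bases before to 50 after the gene's start). The parts before the annotated first exon of 3 of them are shown because their genes had unlike patterns between nucleus types: Plin1 was high in BA-like nuclei, Mgll was high in endothelial nuclei, and Plin2 moved between libraries. They run 5′ to 3′ on the gene's strand from base 250 before the RefSeq start, and capitals mark matches within the stretch, on either strand, to AGGTCA (a nuclear receptor half-site), TTGCNNAA (a C/EBP-type site), CCAAT or CACGTG (an E-box).
Plin1 (chr7:79732904-79733026, minus strand): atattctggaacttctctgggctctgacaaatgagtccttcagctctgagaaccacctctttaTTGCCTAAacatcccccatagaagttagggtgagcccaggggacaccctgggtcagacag
Mgll (chr6:88724162-88724411, plus strand): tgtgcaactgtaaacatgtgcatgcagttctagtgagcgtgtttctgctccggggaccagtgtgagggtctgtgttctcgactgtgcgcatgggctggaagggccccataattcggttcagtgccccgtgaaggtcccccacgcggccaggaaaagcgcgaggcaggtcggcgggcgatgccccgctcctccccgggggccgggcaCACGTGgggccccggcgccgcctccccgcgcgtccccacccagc
Plin2 (chr4:86670061-86670309, minus strand): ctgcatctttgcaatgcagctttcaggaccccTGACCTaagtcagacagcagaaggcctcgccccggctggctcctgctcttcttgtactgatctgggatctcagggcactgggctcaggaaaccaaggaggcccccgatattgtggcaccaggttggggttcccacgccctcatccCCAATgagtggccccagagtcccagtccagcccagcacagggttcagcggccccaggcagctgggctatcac

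The Plin1 promoter held TTGCNNAA at 2 positions over its whole length and a Cidec promoter at 1, against 10.8% of all 32851 promoters with a match. AGGTCA was present in promoters of Abhd5, Plin2 and Plin5 (16.3% of all), and CACGTG in those of Lipe, Mgll and Plin2 (7.15%). CCAAT was found in promoters of Plin2, Plin4 and Plin5 (37.4%). TGACGTCA, the cyclic AMP response element, was in none of the 14 (1.79% of all), and TATAAA in none (13.6%). These are matches of letters in these windows only.

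The tables held 13707, 15368 and 15822 barcodes and 14971579, 14725864 and 9420030 unique molecular identifiers (UMIs, each 1 captured RNA molecule) in the untreated, sham and denervated libraries. After filters, 9410, 10551 and 9507 nuclei were kept and clustered without the 10 genes, so that cluster borders did not use them, and clusters were named from marker genes as BA-like, white adipocyte (WA)-like, endothelial cell (EC)-like and pericyte (PC)-like. BA-like nuclei numbered 4662, 3194 and 4964, with a median of 1825, 1436 and 902 UMIs per nucleus. Ucp1 had 347, 411 and 309.7 CPM in them, and Pecam1, which marks ECs, 32.4, 43.7 and 26.1 against 1164, 1390.1 and 1121 in EC-like nuclei. EC-like nuclei numbered 3957, 4487 and 1882, with a median of 602, 482 and 345 UMIs. Any pair of libraries shared 251 to 278 barcodes, against 238 to 275 for random draws of the same sizes. The sham library stood apart: of all genes with at least 50 CPM in BA-like nuclei, 34.6% differed by 1.5-fold or more between sham and untreated and 38% between denervated and sham, but 8.24% between denervated and untreated. Levels are in CPM of the summed nuclei of a class, which compare a gene between groups, not genes with each other. Bounds are exact 95% intervals that cover counting error only, and with 1 library per condition there is no replicate spread and no test.

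In BA-like nuclei the lipases for the first and middle steps were found in every library, Pnpla2 highest in sham and Lipe nearly level. Pnpla2 had 479 (464 to 493) CPM in the untreated, 839 (813 to 866) in the sham and 445 (427 to 464) in the denervated library. The sham library was thus the high one, and the other libraries were near each other. Lipe had 1459.9 (1434 to 1486), 1279 (1246 to 1312) and 1358 (1326 to 1390.4) CPM, the narrowest spread of the lipases. Mgll, of the last step, had 581 (565 to 597), 838 (812 to 865) and 659 (636 to 681) CPM, again with sham highest.

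Of the lipase regulators, Abhd5 was highest in sham and G0s2 in untreated BAT. Abhd5 had 46.3 (41.9 to 51.1), 143 (132 to 154) and 65.5 (58.6 to 72.9) CPM in the untreated, sham and denervated libraries, from 396, 661 and 331 UMIs. G0s2 had 251 (240.03 to 261), 212 (199 to 226) and 151 (141 to 162) CPM. Over all nuclei the denervated library was lowest in G0s2 and the untreated one highest. The order of untreated and sham turned with depth: in nuclei of at least 800 and under 1600 UMIs G0s2 had 163 (145 to 183) CPM in untreated and 249.7 (228 to 272) in sham BAT, and in those of at least 1600 and under 3200 UMIs 272 (259 to 285) and 182 (165 to 201). Denervated BAT had 155 (141 to 171) CPM in the first range, where its interval overlapped that of untreated BAT. In the second it had 219.9 (195 to 248), between the others. Below 800 UMIs G0s2 had 153 (103 to 218) CPM in untreated, 210 (154 to 279) in sham and 69.2 (54.9 to 86.0) in denervated BAT.

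Among the coat genes, Plin1, the main perilipin of adipocytes, varied least. It had 1601 (1574 to 1628), 1751 (1713 to 1789) and 1632 (1597 to 1667) CPM, and the untreated and denervated intervals overlapped. Plin2, the perilipin found on droplets of most cell types, had 918 (897 to 938), 392 (374 to 410.04) and 607 (586 to 629) CPM, highest in untreated and lowest in sham BAT. Plin4 had 316 (305 to 329), 151 (140.3 to 163) and 343 (327 to 359.6) CPM, with sham low. Plin5, which is abundant in tissues that oxidise fatty acids, had 97.3 (90.8 to 104), 80.5 (72.5 to 89.1) and 141 (131 to 152) CPM, with denervated high. Cidec (FSP27), which works at contacts where droplets fuse, had 695 (677 to 713), 875 (849 to 903) and 556 (535 to 577) CPM.

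**Figure D1:**
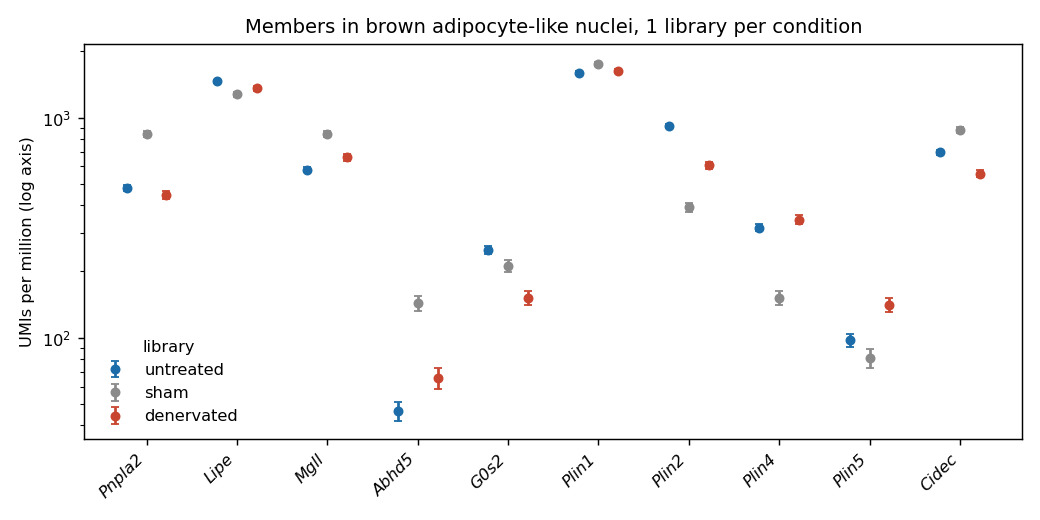
Level of each of the 10 genes in BA-like nuclei, in CPM on a log axis, for the untreated, sham and denervated libraries; points are the summed nuclei of 1 library and bars exact 95% Poisson intervals. Plin1 and Lipe lie close together in the 3 libraries, while Abhd5 is highest in sham and Plin2 and Plin4 are lowest there.

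With every nucleus thinned to 500 UMIs, a Plin1 UMI was present in 53.5%, 54.7% and 53.8% of untreated, sham and denervated BA-like nuclei of that depth (4534, 3056 and 4464 nuclei), against 87.5%, 81.9% and 71.8% before thinning. For Plin2 the thinned shares were 34.1%, 16.8% and 23.1%, and for G0s2 10.2%, 9.73% and 5.92%. In EC-like nuclei at the same depth, Plin1 was present in 7.79%, 6.46% and 7.45% and G0s2 in 1.72%, 1.14% and 1.62%. Mgll went the other way, with 56.3%, 60.7% and 59.0% of EC-like nuclei against 23.5%, 31.6% and 25.6% of BA-like nuclei. These EC-like shares cover only nuclei of at least 500 UMIs. The whole class had a median of 602, 482 and 345 UMIs, so most sham and denervated EC-like nuclei were left out.

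Between nucleus types, 8 of the 10 genes were at least 2-fold higher in BA-like than in EC-like nuclei of untreated BAT, 9 of 10 in sham and 7 of 10 in denervated BAT, where 23.6%, 26% and 24% of all genes with at least 50 CPM in either class were (47%, 48.2% and 49.3% in either direction). All 5 coat genes were among them in each library. Some of these calls did not hold under other settings. In sham BAT, Plin2 (0.97, 0.79 and 0.86) and Abhd5 (0.94, 0.97 and 0.92) fell under 2-fold with ratios centred on all genes, without doublet removal and without the BA-like cluster high in heat shock genes. With the 10 genes kept in clustering, Lipe (0.89) and Plin2 (0.89) did in denervated BAT, and Pnpla2 (0.96) did with centred ratios in untreated BAT. With at least 500 genes per nucleus 0 of the 10 passed 2-fold in denervated BAT, in either direction, with a median of 0.60, and the 594 nuclei then named EC-like held adipocyte markers at 67.6% of the BA-like level. The median over the 10 genes was 1.92, 1.99 and 2.02 on the log2 scale, against 0.13, 0.15 and 0.04 over all genes. Plin1 had 269, 216 and 175 CPM in EC-like nuclei of the untreated, sham and denervated libraries, a log2 ratio of 2.58 (2.47 to 2.68), 3.02 (2.89 to 3.14) and 3.22 (2.98 to 3.47) in favour of BA-like nuclei. G0s2 had 40.1, 27.3 and 30.6 CPM there, with log2 ratios of 2.64, 2.96 and 2.30, and Cidec 118, 146 and 109 CPM, with 2.55, 2.59 and 2.35. Plin4 had 73.7, 33.0 and 38.0 CPM and log2 ratios of 2.10, 2.20 and 3.18, and Plin5 22.6, 9.74 and 29.4 CPM and 2.10, 3.05 and 2.26.

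The general lipases were less skewed toward BA-like nuclei. Lipe had 436, 420.2 and 394 CPM in EC-like nuclei, with log2 ratios of 1.74, 1.61 and 1.78. Pnpla2 had 224, 243 and 234 CPM there, with 1.09 (0.97 to 1.22), 1.79 (1.67 to 1.91) and 0.93 (0.71 to 1.15). Plin2 had 298, 179.8 and 209 CPM, with 1.62, 1.12 and 1.54. Abhd5 did not differ beyond counting error in untreated BAT, where it missed the minimum of 50 CPM in both classes and had 46.0 CPM in EC-like nuclei and a log2 ratio of 0.01 (-0.28 to 0.31), or in denervated BAT, with 57.6 CPM and 0.19 (-0.26 to 0.66). In sham BAT it was higher in BA-like nuclei by 1.09 (0.85 to 1.33).

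Mgll was the exception among the 10. It had 1848 (1797 to 1899.6), 2325 (2267 to 2383) and 1875 (1782 to 1972) CPM in EC-like nuclei, and its log2 ratio of BA-like over EC-like nuclei was -1.67 (-1.73 to -1.61), -1.47 (-1.53 to -1.41) and -1.51 (-1.60 to -1.42). Of all genes, 23.4%, 22.2% and 25.3% were at least 2-fold lower in BA-like nuclei. Besides the last step of lipolysis, MGLL breaks down the endocannabinoid 2-arachidonoylglycerol. PC-like nuclei had 98.4, 166 and 227 CPM of Mgll, far below both BA-like and EC-like nuclei of their library. Mgll was above 1200 CPM in every EC-like cluster of over 100 nuclei, from 1205 to 2124 CPM in untreated, 1958 to 2386 in sham and 1420 to 2091 in denervated BAT.

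**Figure D2:**
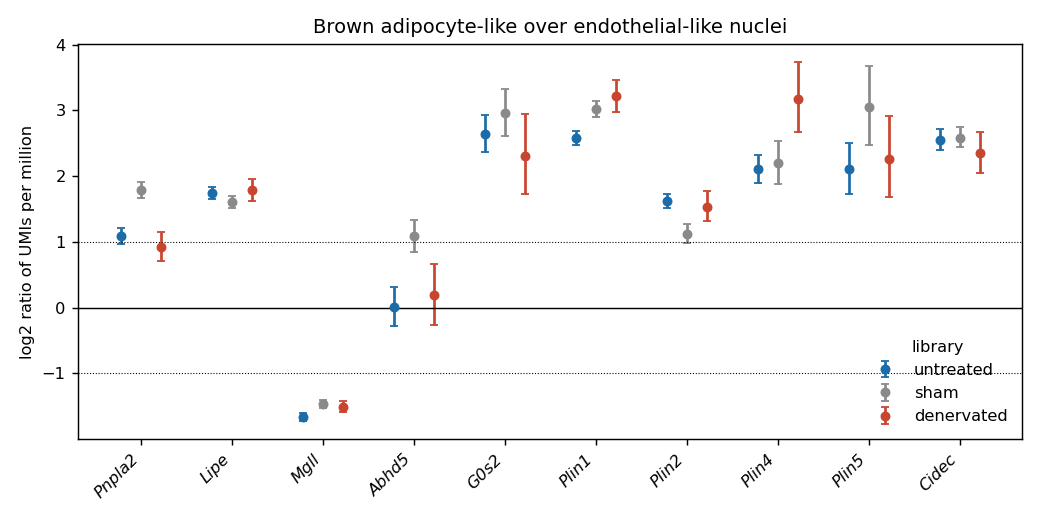
Log2 ratio of CPM, BA-like over EC-like nuclei, for each of the 10 genes in each library; bars are exact 95% intervals for counting error and dotted lines mark a 2-fold difference. Mgll lies near -1.5 in all 3 libraries, Abhd5 near 0 in the untreated and denervated ones, and Plin1 between 2.58 and 3.22.

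RNA of adipocyte markers was also counted in EC-like nuclei. Summed over 17 adipocyte markers with none at 0, the level in EC-like nuclei was 20.3%, 20.1% and 14.2% of that in BA-like nuclei in the untreated, sham and denervated libraries, and single markers ranged from 9.80% to 49.4%, 5.97% to 40.1% and 4.41% to 42.9%. Plin1 stood at 16.8%, 12.4% and 10.7%, G0s2 at 12.9% to 20.2% and Cidec at 17.0%, 16.6% and 19.6%, all within the range of the markers. How much of the level of these genes in EC-like nuclei is RNA of adipocytes was not tested. The highest marker was Lpl in untreated and denervated BAT and Pparg in sham BAT. How much of the marker RNA itself came from adipocytes was not tested either. Mgll stood at 318%, 277% and 285% of the BA-like level, above every marker in each library. Abhd5 was above the highest marker too, at 99.3%, 47.1% and 88.0%, as were Plin2 in sham (45.9%) and Pnpla2 in denervated BAT (52.5%). Pnpla2 at 46.9% in untreated and 28.9% in sham BAT was not. In the untreated library 582 of the EC-like nuclei, led by immediate early genes, had 912 CPM of Plin1, against 98.7 to 105 in the other 3 EC-like clusters, and without them the median over the 10 genes rose to 2.59.

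WA-like nuclei, 144, 1258 and 972 in the untreated, sham and denervated libraries, were told from BA-like ones by markers such as Slc7a10 (562, 483 and 729 against 3.04, 21.6 and 14.4 CPM). Abhd5 had 236, 348 and 215 CPM in them, a log2 ratio of BA-like over WA-like nuclei of -2.35 (-2.79 to -1.88), -1.28 (-1.45 to -1.12) and -1.71 (-1.98 to -1.45). It was the gene that was at least 2-fold higher in WA-like nuclei in all 3 libraries. Plin4 had 632, 520.3 and 665 CPM in WA-like nuclei, with log2 ratios of -0.999 (-1.26 to -0.73), -1.78 (-1.93 to -1.63) and -0.96 (-1.09 to -0.82). Plin5 went the other way, with 25.1, 27.0 and 28.9 CPM in WA-like nuclei from 5, 42 and 25 UMIs, and log2 ratios of 1.96 (0.73 to 3.58), 1.57 (1.11 to 2.07) and 2.29 (1.72 to 2.93). G0s2 had 90.3, 158 and 90.1 CPM there, with 1.47, 0.43 and 0.75. Beyond 2-fold in either direction lay 3, 5 and 2 of the 10 genes, against 28%, 21.9% and 31.7% of all genes. In sham 4 of the 5 were lower (8.82% of all genes).

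In WA-like nuclei the 3 lipases, Abhd5, G0s2, Plin1, Plin2 and Cidec had their highest level in the sham library. Plin4 did not differ beyond counting error between sham and untreated BAT (-0.28, -0.55 to 0.001), and the Plin5 intervals overlapped. Cidec had 577 (476 to 693), 2007 (1937 to 2078) and 469 (424 to 517) CPM in the untreated, sham and denervated libraries, and Lipe 1154 (1009.9 to 1314), 2117 (2045 to 2190.4) and 688 (634 to 746). Pnpla2 had 326, 946 and 248 CPM and Plin2 1169, 1443 and 562. Of the 10 genes, 7 were at least 1.5-fold lower in WA-like nuclei of denervated than of sham BAT (19.9% of all genes, and 44.9% in either direction). Lipe and Plin2, 2 of the 10, were so against untreated BAT (22.1%, and 39.4%). From untreated to sham, Cidec, Pnpla2, Lipe and G0s2 were 1.5-fold higher, 4 of 10 (17.8%, and 44.5%), and 0 of 10 lower (26.7%). The WA-like nuclei also had 8276, 22420 and 11885 CPM of 6 heat shock genes and 9119, 16036 and 9006 CPM of 7 white adipocyte markers in the 3 libraries, and the part of either in these differences was not tested. WA-like nuclei had a median of 1259.5, 1080.5 and 811 UMIs in the untreated, sham and denervated libraries, and their contrasts were not matched on UMIs.

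**Figure D3:**
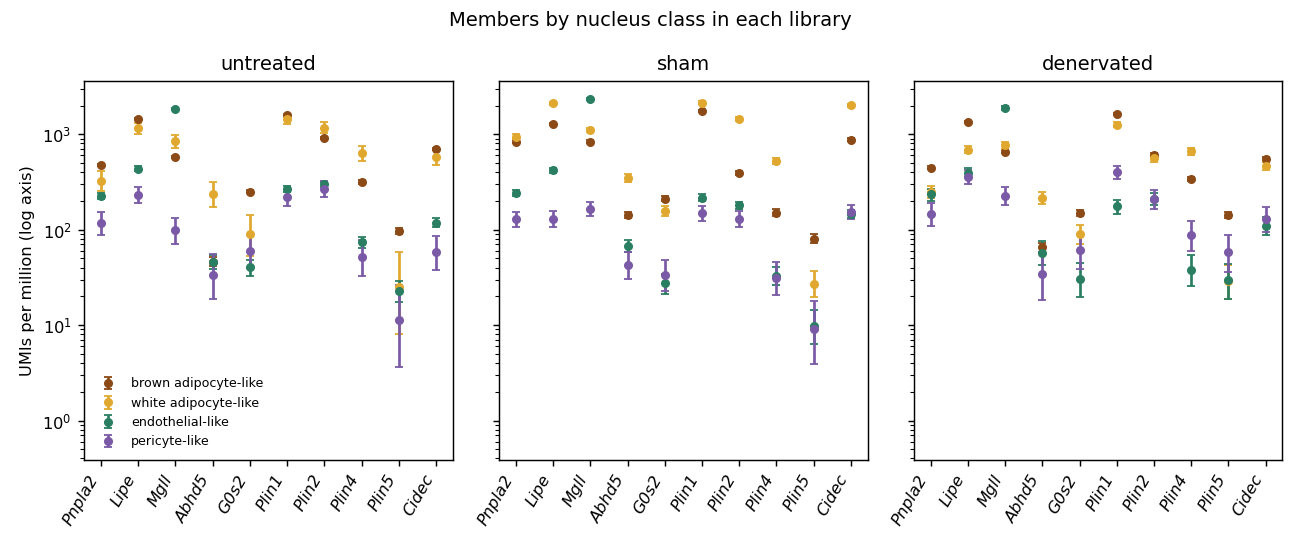
CPM (log axis) of the 10 genes in BA-like, WA-like, EC-like and PC-like nuclei, 1 panel per library; bars are exact 95% Poisson intervals. Mgll is highest in EC-like nuclei in every panel, Abhd5 and Plin4 are highest in WA-like nuclei, and Plin5 in BA-like nuclei.

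In vessel nuclei, the contrasts between libraries carried few UMIs of most of the 10 genes, and 8, 7 and 8 of the 10 reached 50 CPM in EC-like nuclei for denervated over untreated, denervated over sham and sham over untreated. Mgll, the gene high in EC-like nuclei, differed there by 0.02 (-0.06 to 0.10) between denervated and untreated BAT, by -0.31 between denervated and sham and by 0.33 between sham and untreated. Of those, 0 were 1.5-fold higher in EC-like nuclei of denervated than of untreated BAT (9.61% of all genes) and 2, Plin1 and Plin4, lower (5.42%, and 15% in either direction). Adipocyte markers in EC-like nuclei stood at 20.3% of the BA-like level in untreated and 14.2% in denervated BAT, and the part of this in the Plin1 and Plin4 differences was not tested. Against sham, 0 were higher (20.7%) and 0 lower (12.6%, and 33.3%). From untreated to sham 0 were higher (7.74%) and 2, Plin2 and Plin4, lower (11.8%, and 19.6%). Plin5 stayed under 50 CPM and outside these counts, with 22.6, 9.74 and 29.4 CPM from 62, 26 and 24 UMIs in untreated, sham and denervated EC-like nuclei. It differed by 1.59 (0.73 to 2.45) between denervated and sham and by -1.22 (-1.94 to -0.53) between sham and untreated BAT. Between denervated and untreated BAT its interval held 0, at 0.38 (-0.37 to 1.08). The contrasts of EC-like nuclei, with a median of 602, 482 and 345 UMIs per nucleus, were not matched on UMIs.

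BA-like nuclei were at least 2-fold above PC-like nuclei in 9, 10 and 9 of the 10 genes in untreated, sham and denervated BAT (21.1%, 22.7% and 17% of all genes) and below in 0 (23.6%, 24.1% and 21.2%), with 44.8%, 46.8% and 38.2% of all genes past 2-fold in either direction. Abhd5 was the gene within 2-fold, in untreated and denervated BAT. In PC-like nuclei 6 of the 10 were 1.5-fold higher in denervated than in untreated BAT (17.7% of all genes) and 0 lower (16.7%, and 34.4% in either direction), and 6 were higher than in sham (21.3%) and 0 lower (19.6%, and 40.9%). Some rest on few UMIs: Plin5, in both counts, had 22 in denervated, 5 in untreated and 8 in sham BAT. The intervals of Plin4 against untreated (-0.05 to 1.59) and of G0s2 against sham (-0.004 to 1.68) held 0. Sham against untreated gave 2 higher (11.7%) and 4 lower (11.9%, and 23.7%). The 8 general adipocyte markers, none at 0, summed to 2477, 2522 and 5245 CPM in PC-like nuclei of untreated, sham and denervated BAT, and the 10 brown adipocyte markers, none at 0, to 819, 705 and 1756 CPM. The denervated PC-like nuclei were thus the ones highest in RNA of these markers, and the part of this in the PC-like differences was not tested. PC-like nuclei had a median of 727, 740.5 and 392 UMIs in the untreated, sham and denervated libraries, and their contrasts were not matched on UMIs.

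Between denervated and untreated BAT, 8 of the 10 genes stayed within 1.5-fold of each other in BA-like nuclei. None was 1.5-fold higher (5.01% of all genes) and 2 were 1.5-fold lower (3.22%): G0s2, by a log2 ratio of -0.73 (-0.85 to -0.61), and Plin2, by -0.60 (-0.66 to -0.53). The median over the 10 genes was -0.04, against -0.01 over all genes. Plin1 differed by 0.03 (-0.01 to 0.07), Lipe by -0.10 (-0.15 to -0.06), Pnpla2 by -0.10 (-0.18 to -0.03), Plin4 by 0.12 (0.03 to 0.20) and Mgll by 0.18 (0.12 to 0.25). Plin5 was higher by 0.54 (0.39 to 0.68) and Abhd5 by 0.50 (0.28 to 0.71), both short of 1.5-fold, and Cidec was lower by -0.32 (-0.39 to -0.26). Ucp1 itself differed by -0.16 (-0.25 to -0.07) over all nuclei.

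The nuclei of the 2 libraries were not equally deep, and G0s2 moved with depth. In BA-like nuclei of at least 800 and under 1600 UMIs, G0s2 had 163 CPM in untreated and 155 in denervated BAT, and in those of at least 1600 and under 3200 UMIs 272 and 219.9. With 2418 nuclei from each library matched on UMIs, the G0s2 difference was -0.01 and no longer a call. Plin2 had 871 and 604 CPM in the shallower range and 923 and 686 in the deeper one, and -0.42 after matching, the same direction but within 1.5-fold. Plin5 had 83.3 and 150.4 CPM and then 101 and 161, and 0.79 after matching, past 1.5-fold. With Plin5 as the single call after matching, neither of the genes called without it passed. The share of all genes past 1.5-fold in the matched nuclei is not given here, so no excess is read from this call. Pnpla2 turned in direction in these 2 ranges: it had 363 (336 to 392) CPM in untreated and 457 (432 to 484) in denervated BAT in the shallower range and 512 (494 to 530.4) and 594 (552 to 638) in the deeper one, and 0.33 after matching. Cidec had 553 (520 to 589) and 558 (530 to 587) CPM and then 724 (702 to 746) and 687 (642 to 735), with overlapping intervals, and 0.03 after matching. Ucp1 was not lower in denervated nuclei of either range, at 302 (278 to 329) and 347 (325 to 371) CPM and then 358 (343 to 374) and 375 (341 to 410.2). Below 800 UMIs, with 351 untreated and 1971 denervated nuclei, Ucp1 had 357 (278 to 451) and 157 (135 to 181) CPM. There G0s2 had 153 (103 to 218) and 69.2 (54.9 to 86.0) CPM, and Cidec 658 (549 to 781) and 406 (371 to 445). Pnpla2 had 321 (247 to 411) and 260 (232 to 291), so its turn was not seen in this range. Plin2 had 760 (643 to 892) and 522 (481 to 565), and the Plin5 intervals overlapped.

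**Figure D4:**
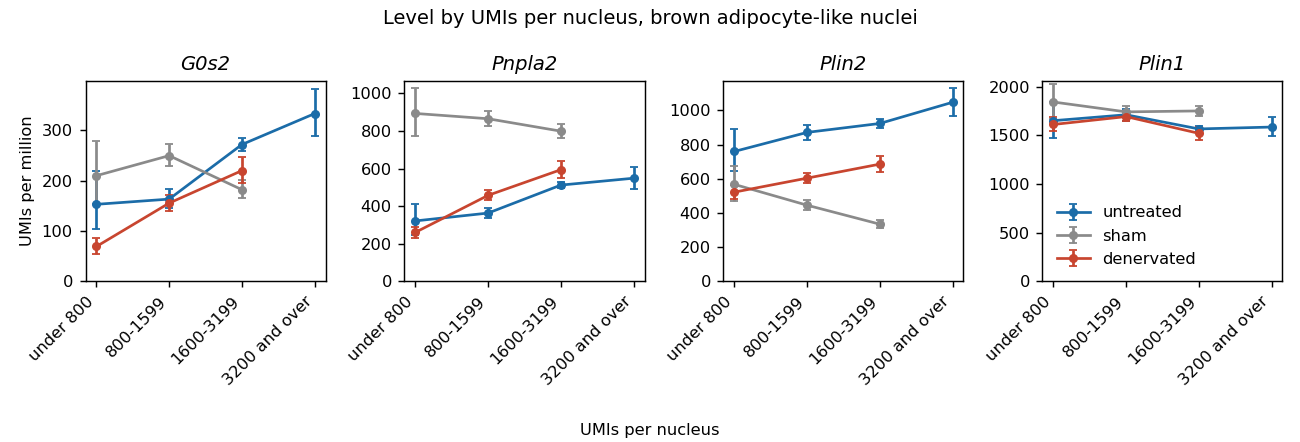
CPM of G0s2, Pnpla2, Plin2 and Plin1 in BA-like nuclei by UMIs per nucleus, for each library; points are sums over the nuclei of a range with at least 100 nuclei and bars exact 95% Poisson intervals. G0s2 rises with depth in the untreated and denervated libraries, Plin2 of the untreated library lies above that of the denervated one in each shared range, and Plin1 stays between 1522 and 1844.

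Against the sham library, 3 of the 10 genes were at least 1.5-fold higher in denervated BA-like nuclei (18.7% of all genes) and 3 lower (19.3%). Plin4 was higher by 1.18 (1.05 to 1.31), Plin5 by 0.81 (0.63 to 0.99) and Plin2 by 0.63 (0.55 to 0.72), while Abhd5 was lower by -1.13 (-1.32 to -0.94), Pnpla2 by -0.91 (-0.99 to -0.84) and Cidec by -0.66 (-0.73 to -0.59). Lipe differed by 0.09 (0.04 to 0.14), Mgll by -0.35 (-0.42 to -0.28) and Plin1 by -0.10 (-0.15 to -0.06). Cidec was no longer past 1.5-fold in nuclei matched on UMIs (-0.56), with at least 500 genes (-0.52) or without the clusters high in heat shock genes (-0.49). Plin2 was not past it at no more than 10% mitochondrial UMIs (0.49), without mitochondrial UMIs (0.57) or with nuclei typed by their own markers (0.20), and under the last G0s2 was, at -0.85. Sham against untreated gave 2 higher (17.7% of all genes), Abhd5 by 1.63 (1.45 to 1.81) and Pnpla2 by 0.81 (0.75 to 0.87), and 2 lower (17%), Plin2 by -1.23 (-1.30 to -1.15) and Plin4 by -1.06 (-1.19 to -0.94). Mgll differed by 0.53, Cidec by 0.33, Plin1 by 0.13, Lipe by -0.19, G0s2 by -0.24 and Plin5 by -0.27, and matched on UMIs Mgll, at 0.59, passed 1.5-fold too. These comparisons share libraries with each other and with the one above. The shares called among the 10 genes, 6 of 10 and 4 of 10, stood beside backgrounds of 38% and 34.6%. BA-like nuclei of the sham library also had 4572 CPM of 7 white adipocyte markers, none at 0, against 1699.7 in the untreated and 2253 in the denervated library, and 6.42% mitochondrial UMIs against 3.14% and 1.85%, and their part in these differences was not tested.

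Against untreated and sham, which share the denervated library in these contrasts, G0s2 was lower by -0.73 and -0.49 and Plin5 higher by 0.54 and 0.81. Matched on UMIs, with 2418 and 2569 nuclei from each library, G0s2 differed by -0.01 and -0.27 and Plin5 by 0.79 and 0.91. For Plin2 the denervated level lay between the others.

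**Figure D5:**
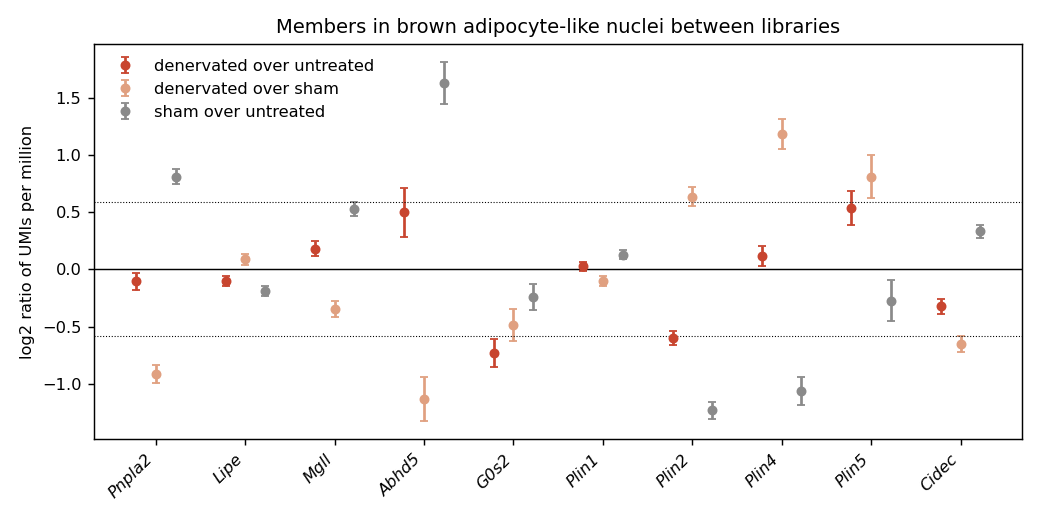
Log2 ratio of CPM in BA-like nuclei between libraries for each of the 10 genes, all nuclei used; bars are exact 95% intervals for counting error and dotted lines mark 1.5-fold. The denervated over untreated values lie between -0.73 and 0.54, while those that involve sham reach 1.63 for Abhd5 and -1.23 for Plin2.

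Within the BA-like class, part of the nuclei formed a cluster with over 10000 CPM of 6 heat shock genes: 751 in untreated, 705 in sham and 1280 in denervated BAT, with 12804, 12018 and 11103 CPM. Heat shock genes such as Hspa1a and Dnajb1 were among the leading genes of the untreated and denervated clusters, while the sham cluster was led by Pdk4 and Jun, with no heat shock gene among its top 10. G0s2 had 101 CPM in that cluster and 269 in the largest BA-like cluster of untreated BAT, and 54.5 and 173 in denervated BAT, but 246 and 203 in sham BAT. Cidec had 393 and 732 CPM, then 338 and 606, and in sham 989 and 846. Pnpla2 was lower in these clusters in each library, at 335 and 496.5, 268 and 484, and 758 and 859.7. Plin2 was higher in them, at 990 and 909 in untreated and 646 and 326 in sham BAT. Abhd5 had 53.8 and 45.4, with overlapping intervals, in untreated and 204 and 128 in sham BAT. Plin1 was nearly level, at 1656 and 1594, 1669 and 1625, and 1761 and 1748. These clusters were shallower in all 3 libraries, with a median of 1183 against 1943 UMIs per nucleus in untreated, 1239 against 1478 in sham and 662 against 1039 in denervated BAT. Without these clusters, G0s2 differed by -0.64 and Plin2 by -0.61 between denervated and untreated BAT, and Plin5, at 0.59, was past 1.5-fold as a further call.

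Split by whether a Ucp1 UMI was found, with both sides matched on UMIs per nucleus, G0s2 was higher in Ucp1-detected nuclei by 0.25 in untreated and 0.41 in denervated BAT and differed by -0.05 in sham BAT. Pnpla2 was higher by 0.20 (0.10 to 0.30) in untreated BAT, and its interval held 0 in denervated BAT at 0.11 (-0.04 to 0.27). In denervated BAT Plin5 by 0.33 (0.04 to 0.62), Plin2 by 0.23 (0.09 to 0.36), Cidec by 0.22 (0.08 to 0.36) and Lipe by 0.15 (0.06 to 0.24) were higher in Ucp1-detected nuclei too. Every interval in sham BAT held 0, and so did those of Plin1 in all 3 libraries. A split by Kit, the receptor the study turned to, gave ratios from -0.08 to 0.13 for all 10 genes in untreated BAT, with 1626 nuclei on each side, from -0.53 to 0.35 in sham BAT, with 155, and from -0.21 to 0.17 in denervated BAT, with 800. The intervals without 0 were those of Plin2 in untreated, at 0.13 (0.06 to 0.20), and Mgll in denervated BAT, at 0.16 (0.005 to 0.32). How many of all genes have such intervals was not computed for either split, so no excess among the 10 is read from them. Matching on UMIs did not match the clusters high in heat shock genes. In untreated BAT Ucp1 had 257 CPM in that cluster and 358 in the largest BA-like one, and the part of this was not tested. Variance over mean of counts per nucleus thinned to 500 UMIs, 1 for chance counting, was 1.04 to 1.19 for the 10 genes in untreated BAT. The median over 4967 genes with a mean of at least 0.02 UMIs was 1.07. In denervated BAT the 10 genes lay at 1.04 to 1.25, with a median of 1.11 over 4865 genes. Cidec and Plin2 were the widest in sham, at 1.34 and 1.37. At low means, such as 0.02 UMIs per nucleus for Abhd5 in untreated BAT, this ratio stays near 1 even where nuclei differ. It thus does not show how alike the nuclei were.

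The rest of the pathway was described from 4 gene lists. Of 12 genes that control lipolysis (receptors, protein kinase A subunits and phosphodiesterases), 10, 9 and 10 reached 50 CPM in untreated, sham and denervated BAT, and 8, 7 and 8 of these were at least 2-fold higher in BA-like than EC-like nuclei, with 1 lower in each. Of 19 other droplet proteins, 13, 11 and 13 reached that level, with 8, 6 and 8 higher and 3, 2 and 3 lower. Of 9 other lipid hydrolases, 8, 8 and 7 reached it, with 5 higher and 0 lower in each library. Of 5 carriers of fatty acid and glycerol, 4 were lower and 1 higher in each library. Over all genes 23.6%, 26% and 24% were higher and 23.4%, 22.2% and 25.3% lower. Of 32 pathway genes with at least 50 CPM in every library, 18 were higher in all 3, where 18.4% of all such genes were, led by Pnpla3, with 3493 CPM in BA-like and 479.6 in EC-like nuclei of untreated BAT, the adenosine receptor Adora1 (121 and 17.2), the protein kinase A subunit Prkar2b (1188 and 182), the prostaglandin receptor Ptger3 (473 and 75.2) and the phosphodiesterase Pde3b (433 and 64.2). The 7 lower in all 3 (19.2% of all such genes) were led by the phosphodiesterase Pde4b (9.94 and 106), the fatty acid binding protein Fabp5 (23.5 and 137), caveolin Cav1 (438 and 1606), the droplet enzyme Hsd17b11 (24.7 and 159.9) and the fatty acid receptor Cd36 (1177 and 4702).

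Between denervated and untreated BA-like nuclei, 0 pathway genes passed 1.5-fold in either direction, of 9, 12, 7 and 4 in the 4 lists that reached 50 CPM, where 8.24% of all genes did. Their list medians lay at 0.07 for the control of lipolysis, -0.15 for other droplet proteins, -0.03 for other hydrolases and 0.08 for carriers. Among receptors upstream of the lipases, Adrb3, the main beta-adrenergic receptor of rodent fat, had 586 CPM in untreated and 616 in denervated BAT, a difference of 0.07 (0.01 to 0.14), and Adrb1 142 and 108, a difference of -0.39 (-0.53 to -0.24). The phosphodiesterases Pde4d and Pde3b, which break down cyclic AMP, differed by 0.46 (0.41 to 0.50) and 0.33 (0.26 to 0.40). No gene of these lists lay past 1.5-fold in the same direction in the denervated library against both others. None of these pathway values was matched on UMIs per nucleus. BA-like nuclei had a median of 1825 UMIs in untreated, 1436 in sham and 902 in denervated BAT, and the part of depth in these values was not tested.

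Over the 16 class and library sums of at least 50000 UMIs, the genes closest to each of the 10 were named by Pearson's r of log2(CPM + 10) among 8616 genes. Plin1 was closest to Gys1 (r = 0.97), G0s2 to Pex11a (0.96), Plin4 to Apol6 (0.96), Abhd5 to Adgrg2 (0.95), Cidec to Pck1 (0.95) and Lipe to Cgnl1 (0.95). Pnpla2 was closest to Lpl (0.94), Plin2 to Insig1 (0.94), Mgll to Ptprm (0.93) and Plin5 to Gm32569 (0.90). Within the 10, Lipe and Plin1 were closest to each other (0.93), and Mgll and G0s2 were least alike (0.05). The sums share libraries and follow nucleus types, so these values are descriptions only.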

How the data were processed

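For untreated, sham and denervated BAT the authors deposited 1 table each of raw UMI counts. The untreated and denervated headers state that the BD Rhapsody pipeline was run with GRCm38 and GENCODE and that UMI errors were corrected. No header came with the sham table. The submitters' processing notes name Seurat 4.0.6 and a human build. The study's own removal of debris and ambient RNA was not repeated. The 10 genes and all gene lists were chosen with earlier results of these data known.

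Barcodes needed 200 or more genes and no more than 50% mitochondrial UMIs. A nucleus counted as a doublet, and was dropped, when a pair of marker lists that exclude each other both had 3 or more UMIs and the smaller reached 25% of the larger (2382, 3476 and 955 nuclei). Libraries were clustered one by one without the 10 genes and the pathway genes, on 2000 variable genes, 30 components and 20 neighbours (Louvain, resolution 0.5). Clusters took the name of their best marker list if at least 3 markers were found and the next best list, where it was of another family, scored at least 0.5 lower on the log2 scale (the adipocyte lists form 1 family, pericyte and smooth muscle another), and 46, 1 and 537 nuclei stayed unnamed. This naming rule was set after clusters had been seen, and differences from the study may come from it. UMIs were summed per class. Intervals are Poisson for levels, Clopper-Pearson for shares and conditional binomial for ratios. Calls were 2-fold between classes and 1.5-fold between libraries. All 10 genes were named in each main comparison. Pathway genes were named if past 1.5-fold in denervated against both other libraries, or, up to 5 each way, past 2-fold between BA-like and EC-like nuclei in all 3; Adrb1, Adrb3, Pde4d and Pde3b between libraries were chosen after their values were seen. Alternatives changed filters, doublets, resolution, typing, scaling and depth. The ratios were also run on simulated Poisson counts, which hold no spread between libraries or nuclei. That run bears on the arithmetic only, not on the contrasts between libraries. Tools were igraph 0.11.9, scikit-learn 1.9.0, pandas 2.3.3, numpy 2.4.6 and scipy 1.17.1 under Python 3.11.15.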

Additional observations from a re-analysis of the deposited data

Results flagged for a closer look

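In 7 cases a gene lay past 1.5-fold in opposite directions in different nucleus classes under the same contrast, each with an interval free of 0 and at least 20 UMIs in each library. The difference between the classes was not tested, and these contrasts were not matched on UMIs per nucleus. Among all genes with that many UMIs in at least 2 classes, 1.56% met the same rule for denervated over untreated, 4.68% for denervated over sham and 1.49% for sham over untreated, against 2, 3 and 1 of the 10 genes. More UMIs and more classes make the rule easier to meet. All genes were not matched to the 10 in either, so no excess is read from these shares. The 8 general adipocyte markers summed to 2477, 2522 and 5245 CPM in PC-like nuclei of the untreated, sham and denervated libraries, and their part in the PC-like values was not tested. Between denervated and untreated BAT, Lipe was higher by 0.62 in PC-like and lower by -0.75 in WA-like nuclei, a gap of 1.37 on the log2 scale. In the same contrast Plin1 was higher by 0.87 in PC-like and lower by -0.62 in EC-like nuclei, a gap of 1.49. Between denervated and sham BAT, Lipe was higher by 1.47 in PC-like and lower by -1.62 in WA-like nuclei, a gap of 3.09. Plin1 was higher by 1.43 in PC-like and lower by -0.77 in WA-like nuclei, a gap of 2.20. Plin2 was higher by 0.63 in BA-like and by 0.69 in PC-like nuclei and lower by -1.36 in WA-like nuclei, gaps of 1.99 and 2.05. Between sham and untreated BAT, Lipe was higher by 0.87 in WA-like and lower by -0.85 in PC-like nuclei, a gap of 1.72. The PC-like values rest on 530, 1108 and 769 nuclei with 98, 132 and 152 Plin1 UMIs in the untreated, sham and denervated libraries. G0s2 between sham and untreated BAT, higher by 0.80 in WA-like and lower by -0.84 in PC-like nuclei, missed the minimum, with 18 UMIs in untreated WA-like nuclei.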

How the results depend on the processing

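No paired analysis was possible because each condition had 1 library and the labels give no replicate numbers that pair samples. For the summary values of the 6 comparisons, 122 of 150 values under alternatives stayed and 28 moved. A median stayed if it lay between the median lower and median upper bound of the 10 genes' own intervals, which is not an interval of the median. A count stayed if it was within 1.5 times the main count. Of the other values (ratios and shares of single genes and background shares), 305 moved and 502 did not, and no single-gene ratio past the fold changed sign. The median log2 ratio of BA-like over EC-like nuclei (1.92, 1.99 and 2.02 in untreated, sham and denervated BAT) became 2.54, 3.11 and 0.60 with at least 500 genes per nucleus. There 0 of the 10 genes passed 2-fold in denervated BAT; the 594 nuclei then named EC-like held adipocyte markers at 67.6% of the BA-like level. With the 10 genes and pathway genes kept in clustering the denervated median was 1.12, with 42.8%. Further values were 2.50 without doublet removal (untreated), 2.51 and 2.55 at resolution 1 (untreated, sham), 2.51 and 2.82 with nuclei typed by their own markers (untreated, sham) and 2.23 at 10% mitochondrial UMIs (sham). After subtraction of the other class's RNA they were 4.07, 4.83 and 3.20, genes with nothing left in EC-like nuclei counted as past any fold. On the mean of log2(counts per 10000 + 1), another scale, they were 1.05, 0.78 and 0.80. Without the EC-like cluster highest in adipocyte markers, an alternative chosen after seeing the data, they were 2.59 in untreated and 2.78 in denervated BAT. Mgll was lower in BA-like nuclei under every alternative run, from -2.01 to -0.62.

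Between denervated and untreated BA-like nuclei, 2 genes passed 1.5-fold, both lower. This became 1, Plin5, higher, both with at least 500 genes per nucleus (G0s2 at -0.58) and with nuclei matched on UMIs, and 1, G0s2, lower, with ratios centred on all genes. For the alternatives, except the one without a minimum CPM, the share of all genes past the fold is not given here. The median of -0.04 became -0.13 with nuclei typed by their own markers, 0.18 matched on UMIs and -0.44 on the mean log2 scale. The denervated over sham median of -0.22 was -0.29 without mitochondrial UMIs and -0.32 on the mean log2 scale, and the sham over untreated median of -0.03 was -0.087 there. Causes were not tested. Without a minimum CPM, 46.3% of all genes passed 1.5-fold between denervated and untreated BAT, against 8.24%. Naming the mixed clusters too, also added after seeing the data, moved no value by more than 0.05. Matching on UMIs moved G0s2 by 0.72, the largest move of a single gene under it. Few UMIs limit Plin5 in untreated WA-like nuclei, with 5.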
